A study of Oryzias latipes with 4 samples.

Results

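The genes of insulin-like growth factor (IGF) and insulin signalling were described in the forebrain and pituitary of medaka (Oryzias latipes) females. Members were the genes whose protein description names an insulin-like growth factor, an insulin receptor, a growth hormone receptor, a suppressor of cytokine signaling (SOCS) or a signal transducer and activator of transcription (STAT). They numbered 46 of 20898 gene symbols, from 108 features of the deposited table, and each of the 108 features lay at the location of the gene that named it. Besides ligands and receptors, the descriptions brought in IGF binding proteins, IGF2 mRNA-binding proteins and insulin receptor substrates. The fish came from a local dealer and were first kept under short days (SD). One group stayed there and the other was transferred to long days (LD), and the ventral telencephalon, hypothalamus and pituitary were collected together from 6 fish per condition 16 h after the transfer. Strain, age and hours of light are not given in the sources used here. Each condition has 2 RNA-seq libraries, SD 1 and SD 2 for short days and LD 1 and LD 2 for long days. The division of the fish among libraries is not stated. The p-values therefore measure only the spread between libraries, and that spread may be technical.

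Growth hormone from the pituitary acts through a receptor that signals by Janus kinases and STAT proteins. In liver and other tissues this induces IGF-I, and SOCS proteins shut the signal down. IGFs and insulin bind related receptor tyrosine kinases, which pass the signal through insulin receptor substrates to phosphatidylinositol 3-kinase and AKT. In the brain these hormones are known for supporting the growth and survival of neurons and glia.

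Levels are in FPKM (fragments relative to feature length and to the library's mapped total), summed over the features of a gene, and values are given in the order SD 1, SD 2, LD 1, LD 2. Of the 46 members, 34 averaged 1 FPKM or more and were tested with limma on log2(FPKM + 1), in a fit over 17030 genes and unnamed features. The other 12 were below this filter, and 1 of them, socs9, was listed at 0 in all 4 libraries. None of the 34 passed the threshold of 0.05 over all units (limma adjusted p between 0.782 and 0.997), where 0.00587% of all tested units did. That was 1 unit, somatotropin, the pituitary growth hormone. It stood at 914 and 866 FPKM in SD and at 263 and 274 in LD, 3.32-fold lower, with a log2 change of -1.73 and a standard error of 0.07 (limma adjusted p = 0.0219). Because the tissue is a block of several cell types, fewer cells of a type and less RNA per cell cannot be told apart. An exact permutation test of 2 libraries against 2 cannot give a p below 0.333.

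Without adjustment, 5 of the 34 members had a limma p under 0.05, which is 14.7% of them against 6.34% of all tested units. Of these, 4 were lower in LD (11.8% of members, 3.79% of all units) and 1 was higher (2.94% and 2.55%). The groups did not overlap for 15 members (44.1%, against 37.2% of all units), with LD lower for 10 (29.4%, against 20.9%) and higher for 5 (14.7%, against 16.4%). In all, 22 of 34 members had a log2 change below 0, and their median was -0.06, beside -0.01 for all tested units, of which 53.7% were below 0. The number of members with an unadjusted p under 0.05 was not stable when a library was left out. Such a fit leaves 1 library in a group, and the share of all units in it is not given here. The members' median log2 change was -0.02 without SD 1, -0.09 without SD 2, -0.10 without LD 1 and -0.04 without LD 2.

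**Figure D1:**
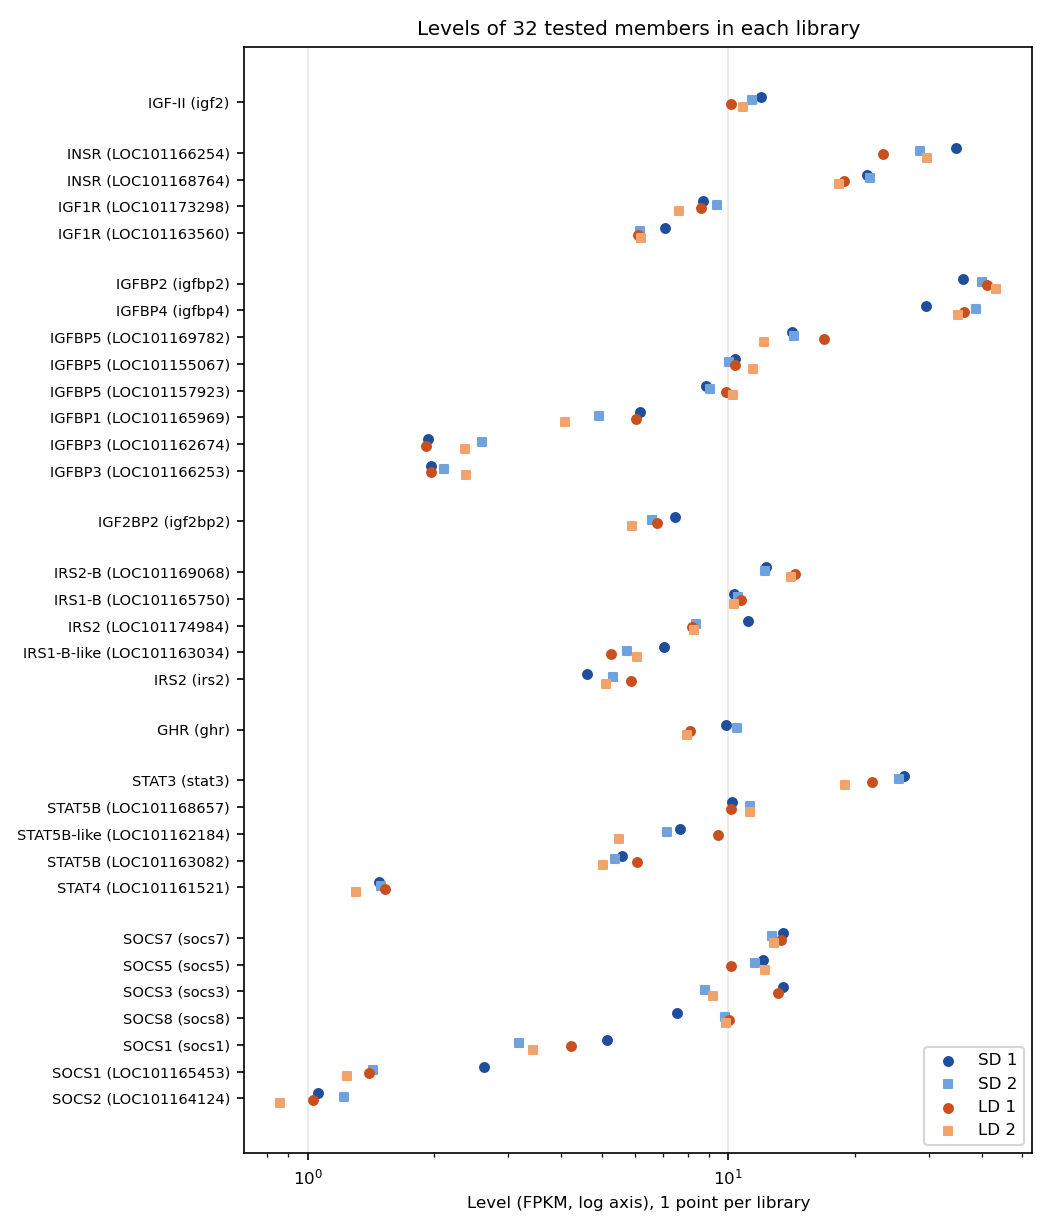
FPKM (log axis) of 32 tested members in each library, grouped by role and ordered by mean level within a role. Circles are libraries numbered 1 and squares those numbered 2, blue for SD and orange for LD. The members span from about 1 FPKM for SOCS2 (LOC101164124) to 40.2 for igfbp2 on average, and most differences between libraries are small beside the differences between genes.

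Levels differed far more between members than between day lengths. On average over the 4 libraries igfbp2 had the highest summed level of the members at 40.2 FPKM. The sums of igfbp4 at 35, an insulin receptor gene (LOC101166254) at 29.1 and stat3 at 23.1 were also among the higher ones. For igfbp2, 31.7 FPKM came from a feature of 404 bp, while its feature of 1893 bp averaged 2.21. A sum over pieces can overstate a level, so this order depends on how each gene is split into features. On the log2(FPKM + 1) scale, the tested members had a median absolute difference of 0.119 from SD 1 to SD 2 and of 0.15 from LD 1 to LD 2. Between groups it was 0.202 and 0.199 for LD 1 and LD 2 against SD 1, and 0.127 and 0.114 against SD 2. SD 1 was thus farther from the LD libraries than SD 2 was. Over all tested units the order was the same and the gap smaller, with 0.132 and 0.134 against SD 1 and 0.126 and 0.121 against SD 2.

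Of the 3 ligand genes only igf2 was above the filter. The igf2 gene encodes IGF-II, a growth factor of the insulin family, and its coding segments lie on chromosome 6 from 31617220 to 31620348 on the plus strand. It stood at 12 and 11.4 FPKM in SD and at 10.2 and 10.9 in LD. Both LD values were lower, but the difference did not pass (log2 change -0.14, standard error 0.09, limma adjusted p = 0.817). Nearly all of this level came from 1 of its 5 features.

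The igf1 gene on chromosome 23, which encodes IGF-I, the main mediator of growth hormone in the body, was scarce in this tissue. It stood at 0.243 and 1.6 FPKM in SD and at 0.484 and 0.479 in LD, below the filter, and was not tested. The LD libraries lay between the SD libraries. Part of the SD 2 value, 0.751 FPKM, came from a feature of 318 bp that was listed at 0 in the other 3 libraries. The second gene described as IGF-I (LOC105354483, chromosome 7) was listed at 0 in SD 1 and LD 1 and stood at 0.0253 in SD 2 and 0.0631 in LD 2.

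All 4 genes of IGF and insulin receptors were tested, and all 4 had a log2 change below 0, with a median of -0.17 beside -0.01 for all units. Their summed level was 71.9 and 65.8 FPKM in SD and at 56.9 and 61.9 in LD. The LD sums were both below the SD sums. These receptors are tyrosine kinases at the cell surface that bind insulin and IGFs.

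The insulin receptor gene on chromosome 4 (LOC101168764, coding segments from 32705720 to 32789719, plus strand) had the smaller spread of the insulin receptor genes. It stood at 21.3 and 21.7 FPKM in SD and at 18.8 and 18.3 in LD. The groups did not overlap, the SD mean was 1.16 times the LD mean, and the unadjusted p was 0.0378 (log2 change -0.20, standard error 0.07, limma adjusted p = 0.783). Each of its 3 tested features was lower in both LD libraries than in both SD libraries. In the fit without each of the libraries in turn its log2 change lay between -0.22 and -0.19. Its unadjusted limma p was 0.059 without a variance trend and 0.058 with the replicate number as a block.

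The insulin receptor gene on chromosome 17 (LOC101166254) was more abundant and more variable. It stood at 34.8 and 28.5 FPKM in SD and at 23.4 and 29.7 in LD. LD 2 lay between the SD libraries, so the groups overlapped (log2 change -0.25, standard error 0.15, limma adjusted p = 0.812). Without LD 1 the log2 change was -0.08, and without SD 1 it was -0.11. Without SD 2 it was -0.39, and without LD 2 it was -0.42.

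The IGF-I receptor genes were less abundant. That on chromosome 6 (LOC101173298) stood at 8.72 and 9.39 FPKM in SD and at 8.62 and 7.62 in LD. The groups were just apart, with LD 1 close to SD 1 (log2 change -0.14, standard error 0.11, limma adjusted p = 0.838). Neither of its features gave such a gap alone. The one of 4328 bp stood at 4.83 and 4.5 FPKM in SD and at 4.71 and 4.76 in LD. The one of 540 bp stood at 3.89 and 4.89 in SD and at 3.91 and 2.87 in LD. The IGF-I receptor gene on chromosome 3 (LOC101163560) stood at 7.08 and 6.17 FPKM in SD and at 6.09 and 6.21 in LD, where only SD 1 was higher (log2 change -0.09, standard error 0.11, limma adjusted p = 0.896).

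IGF binding proteins hold IGFs outside the cell and set how much of them reaches the receptors. Of 10 genes, 8 were tested, 6 with a log2 change above 0 and 2 below, and their median was 0.07. For 3 of the 8 LD was higher with no overlap of the groups, and for none was it lower. Over all tested units these shares were 16.4% and 20.9%. None of the 8 binding protein genes had an unadjusted p under 0.05. The summed level of the 10 genes was 109 and 122 FPKM in SD and at 125 and 121 in LD, where SD 1 was the low library and the groups overlapped.

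The igfbp2 gene took the largest share of that sum, between 32.9% and 35.7% in each library, and igfbp4 between 27.1% and 31.8%. These shares depend on how each gene is split into features. The igfbp2 gene (chromosome 2, coding segments from 13995199 to 14017653, plus strand) stood at 36.1 and 40.2 FPKM in SD and at 41.2 and 43.4 in LD. The groups were apart, but SD 2 and LD 1 nearly met (log2 change 0.15, standard error 0.08, limma adjusted p = 0.802). Its features did not share a direction. The most abundant one (404 bp) stood at 28 and 31.3 FPKM in SD and at 32.3 and 35.3 in LD, while one of 1893 bp stood at 2.19 and 3.04 in SD and at 1.85 and 1.77 in LD. The igfbp4 gene on chromosome 1 stood at 29.6 and 38.9 FPKM in SD and at 36.3 and 35.2 in LD, with both LD libraries between the SD libraries (log2 change 0.07, standard error 0.14, limma adjusted p = 0.935).

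Among the less abundant binding proteins, the IGFBP5 gene on chromosome 2 (LOC101157923) stood at 8.86 and 9.06 FPKM in SD and at 9.88 and 10.2 in LD. Its groups were apart by more than either group's spread (log2 change 0.15, standard error 0.09, limma adjusted p = 0.802). The IGFBP5 gene on chromosome 21 (LOC101155067) stood at 10.4 and 10 FPKM in SD and at 10.4 and 11.5 in LD, where LD 1 was above SD 1 only in the fifth digit. The IGFBP5 gene on chromosome 7 (LOC101169782) stood at 14.2 and 14.4 in SD and at 16.9 and 12.2 in LD, so that the LD libraries lay on either side of SD. The IGFBP1 gene on chromosome 4 (LOC101165969) was split by library number rather than by group, at 6.15 and 4.94 in SD and at 6.04 and 4.09 in LD. The 2 IGFBP3 genes, LOC101162674 and LOC101166253, had means of 2.2 and 2.11 FPKM and overlapping groups.

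Most binding protein genes lay side by side. Of the 10, 8 formed 4 neighbouring pairs with no other RefSeq gene between them, each an IGFBP1 gene with an IGFBP3 gene or an IGFBP2 gene with an IGFBP5 gene. On chromosome 2, igfbp2 and LOC101157923 were 3.48 kb apart between coding segments and stood at means of 40.2 and 9.51 FPKM. On chromosome 21 the same arrangement had a gap of 14 kb, with the IGFBP2-B gene (LOC101154818) at a mean of only 0.0326 FPKM beside IGFBP5 at 10.6. On chromosome 4, IGFBP1 and IGFBP3 were 8.04 kb apart, with means of 5.31 and 2.2. On chromosome 17 they were 1.63 kb apart, and the IGFBP1 gene (LOC101162631) was listed at 0 in all libraries except LD 2, where it stood at 0.0778, beside IGFBP3 at a mean of 2.11. In both arrangements, then, 1 copy of the pair had a partner near 0 and the other copy had both genes above the filter.

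**Figure D2:**
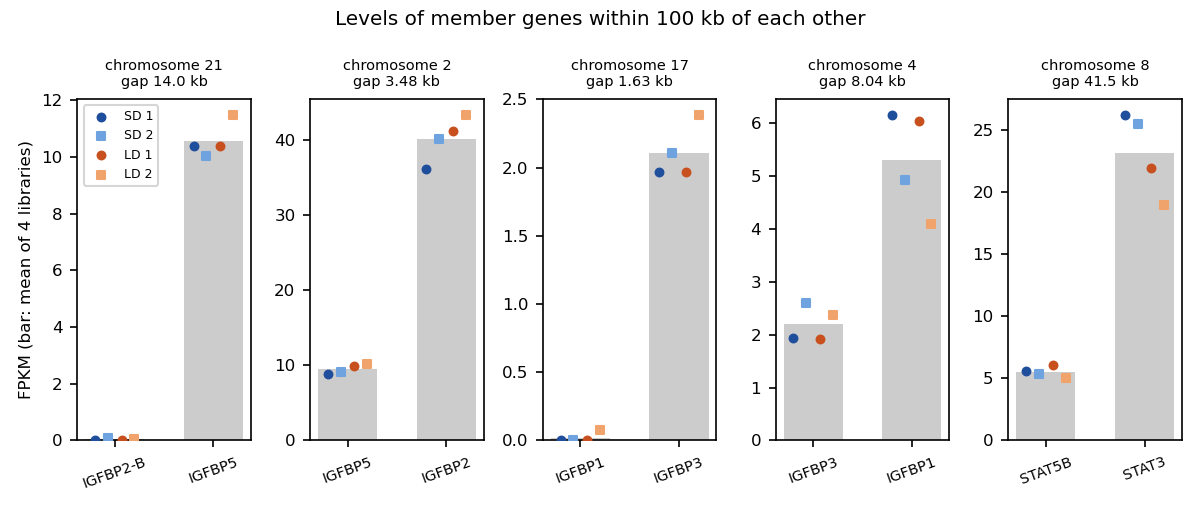
FPKM of member genes within 100 kb of each other, in 5 pairs with the gap between their coding segments. Bars start at 0 and show the mean of the 4 libraries, and points show each library. IGFBP2-B on chromosome 21 and IGFBP1 on chromosome 17 are near 0 beside neighbours at 10.6 and 2.11 FPKM, and the vertical scales differ between panels.

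Genes for the acid labile subunit, which in mammals binds IGF complexes in blood, were near 0. The igfals gene lay between 0.0649 and 0.0979 FPKM and LOC101168293 between 0.115 and 0.513, and neither was tested. The IGF2 mRNA-binding proteins are cytoplasmic RNA-binding proteins that bind IGF-II and other messenger RNAs. Of the 3 genes only igf2bp2 was above the filter, at 7.46 and 6.58 FPKM in SD and at 6.78 and 5.92 in LD. LD 1 lay between the SD libraries (log2 change -0.13, standard error 0.12, limma adjusted p = 0.866). The igf2bp1 gene was at 0.418 to 0.854 FPKM and igf2bp3 at 0.38 to 0.574.

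Insulin receptor substrates are docking proteins phosphorylated by the insulin and IGF receptors. Of 6 genes, 5 were tested, with 3 log2 changes above 0, 2 below and a median of 0.01. The IRS2-B gene on chromosome 18 (LOC101169068, coding segments from 21726289 to 21737307, minus strand) was the only member with an unadjusted p under 0.05 and a higher level in LD. It stood at 12.3 and 12.2 FPKM in SD and at 14.4 and 14.1 in LD. The gap between the groups exceeded the spread within each (log2 change 0.20, standard error 0.08, unadjusted p = 0.0493, limma adjusted p = 0.783). Without each of the libraries in turn the log2 change lay between 0.19 and 0.22. The unadjusted limma p was 0.059 without a variance trend and 0.073 with the replicate number as a block.

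The other substrates were at or near their SD levels or varied within a group. The IRS1-B gene on chromosome 14 (LOC101165750) stood at 10.3 and 10.5 FPKM in SD and at 10.7 and 10.3 in LD (log2 change 0.01, standard error 0.08, limma adjusted p = 0.982). An IRS2 gene on chromosome 2 (LOC101174984) stood at 11.2 and 8.4 FPKM in SD and at 8.2 and 8.3 in LD, so that only SD 1 was apart. The IRS1-B-like gene (LOC101163034) stood at 7.03 and 5.74 in SD and at 5.27 and 6.07 in LD, and irs2 at 4.62 and 5.32 in SD and at 5.88 and 5.13 in LD. Both had overlapping groups. The IRS1-like gene LOC111946350 was below the filter and stood at 1.77 FPKM in LD 2 against at most 0.187 in the other 3 libraries.

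The growth hormone receptor is the cell-surface receptor for somatotropin. The symbol ghr covered 2 genes, 1 on chromosome 9 and 1 on chromosome 12, which were summed by the rule that chose the members. The sum stood at 9.9 and 10.5 FPKM in SD and at 8.1 and 7.98 in LD. The groups did not overlap, with the SD mean 1.27 times the LD mean (log2 change -0.31, standard error 0.09, unadjusted p = 0.0179, limma adjusted p = 0.782). Leaving out each library in turn gave a log2 change of the sum between -0.35 and -0.27.

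Kept apart, a choice made after the values were seen, both genes were lower in LD with no overlap of the groups. The unadjusted limma p was 0.030 on chromosome 12 and 0.118 on chromosome 9. The ghr gene on chromosome 12 (coding segments from 27831596 to 27852257, minus strand) stood at 7.41 and 7.63 FPKM in SD and at 6.03 and 5.96 in LD (log2 change -0.28, standard error 0.10, limma adjusted p = 0.784). Part of this gap came from a feature of 693 bp near the floor, at 0.319 and 0.147 in SD and 0 in LD. Tested alone, the feature of 2716 bp that carries most of the level had a log2 change of -0.24 and an unadjusted limma p of 0.056. The ghr gene on chromosome 9 (8417945 to 8435862, minus strand) stood at 2.5 and 2.89 in SD and at 2.06 and 2.02 in LD (log2 change -0.28, standard error 0.15, limma adjusted p = 0.798). The SD means were 1.25 and 1.32 times the LD means. For each gene both LD libraries were nearly equal and below both SD libraries, and neither difference passed over all units. The summed level of 11 pituitary marker genes was also lower in LD, at 6010 and 6171 FPKM in SD and at 3741 and 5221 in LD, and its part in the lower receptor values was not tested.

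**Figure D3:**
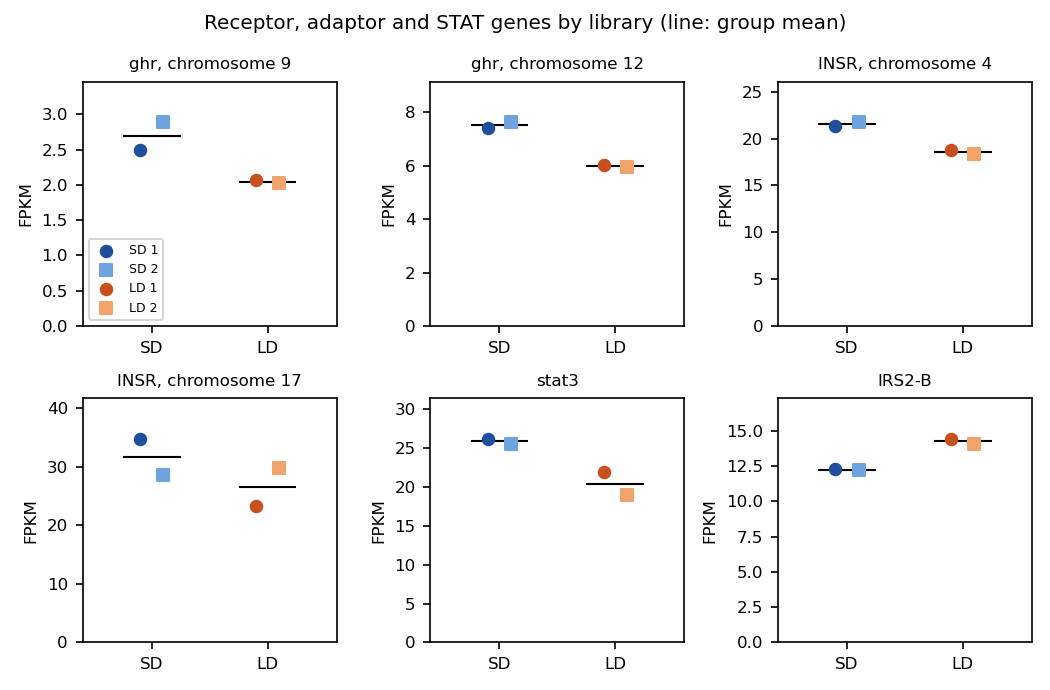
FPKM by library, on axes that start at 0, of the ghr genes, insulin receptor (INSR) genes, stat3 and the IRS2-B gene LOC101169068. Points are libraries and black lines group means. The groups are apart in all panels except INSR on chromosome 17, where LD 2 at 29.7 lies between the SD libraries.

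STAT proteins are transcription factors activated by cytokine and growth hormone receptors. Of 8 genes, 7 were tested, 6 with a log2 change below 0 and 1 above, and the median was -0.04. The stat3 gene had lower values in LD, and the genes described as STAT5B were near level.

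The stat3 gene encodes the STAT used by the interleukin-6 family of cytokines and by leptin. It lies on chromosome 8 (coding segments from 6337568 to 6345719, minus strand) and stood at 26.2 and 25.5 FPKM in SD and at 21.9 and 18.9 in LD. Both LD libraries were below both SD libraries, and the SD mean was 1.26 times the LD mean (log2 change -0.33, standard error 0.10, unadjusted p = 0.018, limma adjusted p = 0.782). Without each of the libraries in turn the log2 change lay between -0.43 and -0.23. A STAT5B gene (LOC101163082) lies 41.5 kb from it with no RefSeq gene between and did not show the difference, at 5.6 and 5.37 FPKM in SD and at 6.08 and 5.05 in LD.

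STAT5 proteins are the STATs through which the growth hormone receptor is best known to act. The STAT5B gene on chromosome 19 (LOC101168657) stood at 10.2 and 11.2 FPKM in SD and at 10.1 and 11.3 in LD, a log2 change of -0.003 with a standard error of 0.10. The STAT5B-like gene on chromosome 7 (LOC101162184) stood at 7.7 and 7.14 in SD and at 9.45 and 5.49 in LD, where the LD libraries lay on either side of SD. For LOC101163082 the log2 change was 0.01 with a standard error of 0.12. Limma adjusted p lay between 0.986 and 0.996 for these 3 genes. The STAT4 gene LOC101161521 stood at 1.48 and 1.49 in SD and at 1.53 and 1.31 in LD, with overlapping groups.

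SOCS proteins bind activated cytokine and growth hormone receptors or their kinases and end the signal. Of 9 genes, 7 were tested, 2 with a log2 change above 0 and 5 below, and none had an unadjusted p under 0.05. The median was -0.07. The highest by summed level, socs7, stood at 13.5 and 12.7 FPKM in SD and at 13.3 and 12.8 in LD (log2 change -0.0018, standard error 0.08, limma adjusted p = 0.997). This rank depends on the summing, as its largest feature averaged 6.98 FPKM and that of socs5 averaged 11.5. The socs5 gene stood at 12.1 and 11.6 in SD and at 10.1 and 12.2 in LD, where LD 1 was the low library (log2 change -0.08, standard error 0.11, limma adjusted p = 0.914).

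SOCS2 is the family member best known in mice for restraining growth hormone. Its gene LOC101164124 was barely above the filter and stood at 1.06 and 1.22 FPKM in SD and at 1.03 and 0.861 in LD (limma adjusted p = 0.912). A SOCS1 gene on chromosome 1 (LOC101165453) stood at 2.62 and 1.43 in SD and at 1.4 and 1.24 in LD. SD 1 was the high library, and SD 2 and LD 1 nearly met (limma adjusted p = 0.827). The other SOCS1 gene, socs1, stood at 5.16 and 3.18 in SD and at 4.23 and 3.44 in LD.

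The symbol socs3, for an inhibitor of cytokine receptors that use Janus kinases, also covered 2 genes. The one on chromosome 8 followed the library number and not the day length, at 9.91 and 5.75 FPKM in SD and at 10.2 and 5.67 in LD. The one on chromosome 19 stood at 3.59 and 3.06 in SD and at 2.9 and 3.55 in LD. For their sum the log2 change was 0.01 with a standard error of 0.24. The socs8 gene stood at 7.57 and 9.81 in SD and at 10 and 9.89 in LD, with SD 1 the low library (log2 change 0.19, limma adjusted p = 0.835). The socs4 gene was listed at 0 except for 0.0232 FPKM in LD 1.

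**Figure D4:**
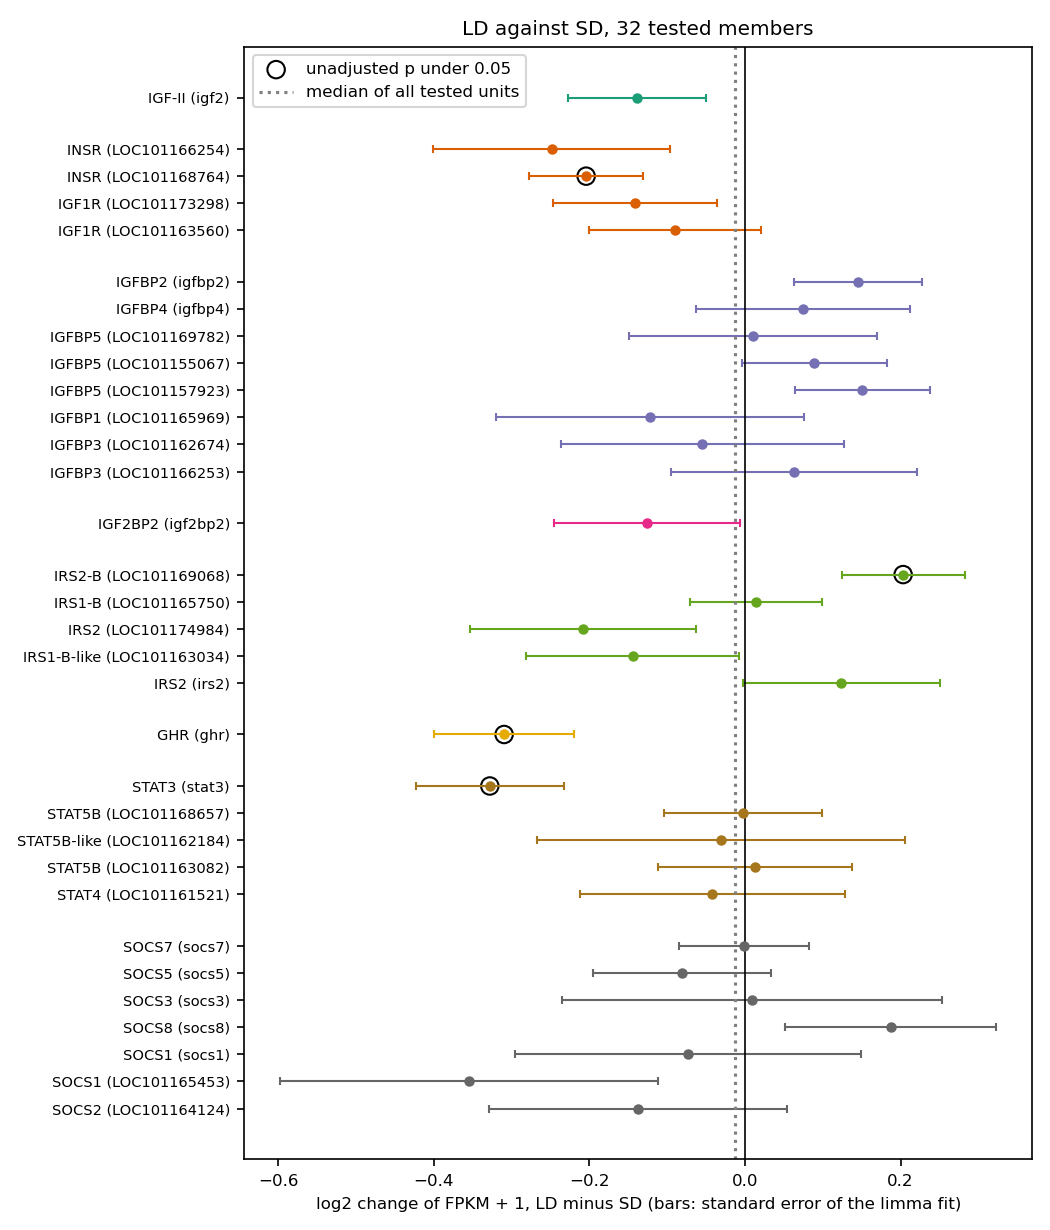
Log2 change of FPKM + 1 (LD minus SD) of 32 tested members, by role, with the standard error of the limma fit. Black rings mark the 4 of them with an unadjusted p under 0.05, and the dotted line is the median of all tested units at -0.01. Receptors, ghr and stat3 lie left of 0 and most binding protein genes lie at or right of it, and no member passed after adjustment.

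Many members are split into several features, so that a sum adds pieces of a gene and can overstate its level beside a gene with 1 feature. Of the member features, 48 averaged 1 FPKM or more, and 13 members had 2 or more of them. In 6 of these 13 all features had a log2 change of the same sign, and in 7 they did not. Those of 1 sign included both insulin receptor genes and ghr. For ghr, and for socs3 among those of both signs, the tested features belong to separate genes under 1 symbol. Their signs therefore do not compare pieces of the same gene. Tested alone, 5 of these 48 features had an unadjusted p under 0.05, and none passed over the 22810 features tested. The share of all features with such a p was not counted.

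**Figure D5:**
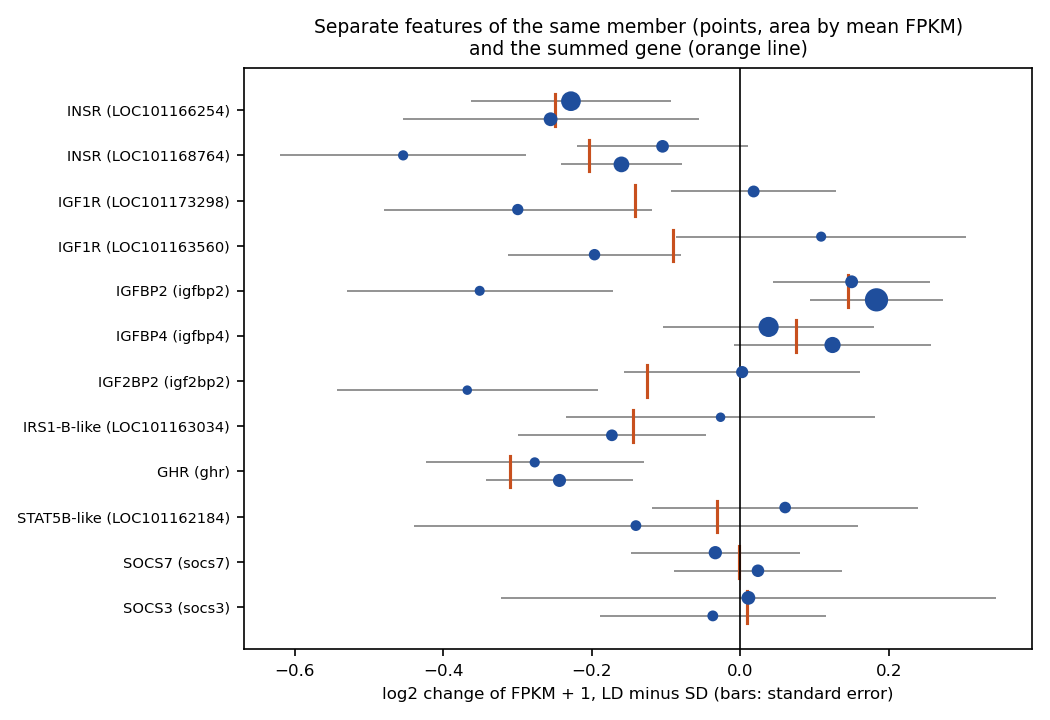
Log2 change (LD minus SD) of each separately tested feature of 12 members with 2 or more features, with standard errors. Point area grows with mean FPKM and the orange line is the summed gene. Features of ghr and of both insulin receptor genes all lie below 0, whereas those of igfbp2, igf2bp2 and the IGF-I receptor genes lie on both sides. The features drawn for ghr and for socs3 come from separate genes that share a symbol.

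Genes that act beside the members were taken from 5 lists, covering insulin and related ligands with their proteases, receptor adaptors and Janus kinases, phosphatidylinositol 3-kinase and AKT, mTOR and translation, and FOXO factors. They hold 120 genes, of which 106 were tested, with 39 log2 changes above 0, 67 below and a median of -0.04. None passed over all units. An unadjusted p under 0.05 was found for 7 (6.6%, beside 6.34% of all units). Of these, 6 were higher in LD (5.66%, beside 2.55% of all units) and 1 was lower (0.943%, beside 3.79%). All 6 FOXO genes, for transcription factors restrained by AKT, were tested, with 5 log2 changes below 0 and 1 above.

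The adaptor genes had the smallest p-values of these. The shc3 gene, for a neuronal adaptor between receptors and the Ras pathway, stood at 17.7 and 19.6 FPKM in SD and at 27.1 and 26.2 in LD (log2 change 0.49, standard error 0.08, limma adjusted p = 0.687). The related shc4 stood at 2.05 and 2.15 in SD and at 3.61 and 3.32 in LD (log2 change 0.53, limma adjusted p = 0.782). The grb10 gene, for an adaptor that inhibits insulin and IGF receptors, stood at 9.99 and 9.02 in SD and at 5.45 and 6.63 in LD (log2 change -0.58, standard error 0.13, limma adjusted p = 0.782). For each of these 3 genes the groups were well apart, and none passed.

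Further along the pathway, a Rheb gene (LOC101161855), for the GTPase that activates mTOR, stood at 49 and 50 FPKM in SD and at 60.2 and 56.7 in LD. The gene described as insulin (LOC100125446) was scarce, at 1.47 and 1.34 in SD and at 3.87 and 2.21 in LD. Both had higher values in both LD libraries and a limma adjusted p of 0.782.

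The labelled tissue was checked by markers of its cell types. Neuronal markers such as snap25 (849 to 883 FPKM), the astroglial glul (612 to 817) and the pituitary pomc (1165 to 1579) were abundant in all 4 libraries. Of the 11 pituitary marker genes 7 had a log2 change below 0 and 4 above. Both LD libraries were below both SD libraries for 4 of the 11, prolactin-1 (LOC101172582), lhb, pitx1 and pou1f1. They were above both SD libraries for 1. Groups without overlap thus made up 45.5% of the 11, beside 37.2% of all tested units (20.9% lower and 16.4% higher in LD). Of the 11, 2 had an unadjusted limma p under 0.05, both lower in LD (18.2%, beside 3.79% of all units). The median log2 change of the 11 was -0.21, beside -0.01 for all units. The most abundant of the 11 was prolactin-1, at 3900 and 3743 FPKM in SD and at 1825 and 3536 in LD, so that LD 1 was the lowest library.

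The 12 astroglial marker genes, 1 of them listed at 0 throughout, summed to 2292 and 2266 FPKM in SD and to 2295 and 2057 in LD. Of the 8 tested, 5 had a log2 change above 0 and 3 below, with a median of 0.13. Without overlap of the groups, 2 were higher in LD, fabp7 among them, and 3 lower, connexin 43 (LOC101170140) among them. That is 62.5% of the 8, beside 37.2% of all tested units. Of the 8, 1 had an unadjusted limma p under 0.05 (12.5%, beside 6.34% of all units). It was connexin 43, at 188 and 176 FPKM in SD and at 128 and 115 in LD (log2 change -0.58, limma adjusted p = 0.443). The 9 microglia and macrophage marker genes summed to 143 and 177 in SD and to 171 and 111 in LD, and 7 of the 9 had a log2 change below 0. The 17 genes of vessels and meninges summed to 84 and 83.5 in SD and to 85.4 and 74.4 in LD. The sums of these 3 lists overlap between groups, although single genes in them do not, and their part in the members' values was not tested. The 18 neuronal marker genes summed to 2659 and 2654 FPKM in SD and to 2742 and 2717 in LD, higher in both LD libraries. Of the 15 tested, 11 had a log2 change above 0 and 4 below. Groups did not overlap for 26.7% of the 15, beside 37.2% of all tested units. None of the 15 had an unadjusted limma p under 0.05, and the part of this list was not tested either. The 12 oligodendrocyte marker genes summed to 1044 and 992 in SD and to 1635 and 814 in LD, with LD 1 apart from the rest. The 9 blood marker genes summed to 6085 and 8368 in SD and to 9130 and 7412 in LD. SD 1 was thus the lowest library for blood, and the groups overlapped. The 8 muscle marker genes summed to 10.5 and 13.5 in SD and to 16.8 and 10.6 in LD. The part of blood and muscle in the members' values was not tested. Of the 3 choroid plexus genes matched only otx2 was above the filter, and klotho was at 0.336 to 0.756 FPKM. Each library has 22556 to 22869 features at 1 FPKM or more.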

How the data were processed

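Libraries were stranded and selected for mRNA (a TruSeq kit), per the labels' protocols. The submitters' processing notes name HISAT2 2.0.5 and StringTie 1.3.3b without settings. The authors deposited 1 table of FPKM values for 93896 features, with 1 column per library and each feature's best BLAST hit, per the file headers. No genome build is named in the labels or the table. Coordinates are those that the table gives for its hits. The 48 member genes were all matched to RefSeq genes of assembly ASM223467v1, used for names and neighbours. Products of low FPKM values and feature length lay within 0.05 of a whole multiple of the commonest step for only 16.5% to 18.8% of values, where 10% would by chance, so read counts were not recovered, depth is unknown and no counting interval is given.

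Rows sharing a gene symbol were summed (16 symbols, ghr and socs3 among them, cover more than 1 gene), and unnamed features were kept as units. Reads shared by near-identical paralogs cannot be separated in such sums. Units with a mean of at least 1 FPKM were tested on log2(FPKM + 1), with a pseudocount of 1, by limma 3.58.1 in R 4.3.3. Group was the only term, the prior variance followed a trend with the mean, and two-sided p-values were adjusted by Benjamini-Hochberg over all 17030 units. Fold changes on this scale understate the change of low genes. The fit was tested on simulated data drawn with its own variances. The changes planted there were larger than that of any tested member, so this does not bear on changes of the members' size. Alternatives were a pseudocount of 0.1, a filter of 5 FPKM or none, median-ratio scaling, robust variances, other ways of summing, a replicate block, no trend and leaving out each library. Summing by gene identifier was added after the data were seen. Tables were handled in Python 3.11.15 with pandas 2.3.3, and plots in matplotlib 3.10.9.

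The members, the pathway and marker lists and the tests were chosen with earlier results of these data known. Full values were set by rule for ligands, receptors and ghr above the filter, the 2 most abundant tested members of each other role, and members with an unadjusted p under 0.05. Of the listed pathway genes, the 6 with the smallest p under 0.05 were to be named. Some of the genes so chosen are not reported here, though the counts and medians include them. Values of further members and of marker genes complete the account and were chosen after they were seen.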

Additional observations from a re-analysis of the deposited data

How the results depend on the processing

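No member passed the adjusted threshold in any of the 14 alternatives run. Over all units the count of 1 became 0 with no filter, with limma run without a trend and with the replicate number as a block, 2 with rows summed only at the location of their hit, 7 with rows not summed, and 0 to 4 when a library was left out. The 5 members with an unadjusted p under 0.05 became 2 without a trend, and their number was not stable when a library was left out. With the replicate block, 4 members had an unadjusted p under 0.05. The share of all units with such a p was not counted in these fits. Whether these counts are particular to the members is therefore not known. Across all 17030 units, the correlation of same-numbered deviations of SD and LD was 0.039. This value describes all units and not single genes, and socs3 on chromosome 8 and LOC101165969 were split by library number. Whether the replicate numbers pair the libraries for such genes was not tested. The median log2 change of the members, -0.06, was -0.0089 with no filter, where 45 members entered, and -0.099 to -0.021 when a library was left out. For the 16 members chosen by rule, 214 of 223 log2 changes under the alternatives kept their sign, and the other 9 belonged to 6 genes. Many of these 223 values could not differ from the main fit. Changing the filter, the trend, the variances or the replicate block left every one of these log2 changes as it was. So did summing at the location of the hit or by gene identifier. The share of kept signs therefore overstates how stable the signs are. When a library was left out, the log2 change lay between -0.040 and 0.036 for socs7, between -0.0094 and 0.038 for LOC101165750, between -0.12 and 0.27 for igfbp4 and between -0.21 and 0.044 for socs5. With median-ratio scaling it was 0.011 for socs7, and with rows not summed it was 0.018 for LOC101173298 and 0.0026 for igf2bp2. The cause was not tested. Having 2 libraries per group limits the precision of every value.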
